A study of Mus musculus with 17 samples.

Results

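The genes described here are 35 genes known from macrophages, read in RNA libraries that the labels give as sorted T cells. They were picked by symbol because earlier results of these data had shown them higher in T cells from the airway than in T cells from the lymph node, so that difference is given below as a description, without a test. All 35 symbols were found among the 24537 genes of every library, and they cover 34 distinct genomic intervals because Ear12 and Ear3 share 1.

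The study compared Th2 cells, the CD4+ T cells of allergic inflammation, between sites and between genotypes in mice with an allergen-driven airway inflammation. The 17 libraries form 6 groups. Airway cells (3 libraries, from bronchoalveolar lavage, the fluid that rinses the lung surface) and lymph node reporter cells (3 libraries, from the mediastinal lymph node) came from Gata3-YFP reporter mice, which the labels call GATIR. Lymph node OTII cells came from Notch1/2-KO mice (4 libraries) and from mice without that label (3 libraries), and cultured OTII cells likewise (2 libraries each). OTII is a transgenic T cell receptor that recognises ovalbumin, and all 4 OTII groups carry it. The cultured cells were naive spleen T cells kept for 7 days on plates coated with antibodies to CD3 and CD28, with IL-4 and antibodies blocking IFN-γ and IL-12/23. The labels name neither the Cre line behind the deletion, the sort gates, the ages of the mice, nor whether replicates are separate animals, so the spread between libraries may be technical. The sample titles mark the OTII libraries without the Notch1/2-KO label as WT, and these are called wild type here. The titles of the airway and lymph node reporter libraries carry WT as well.

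Macrophages are phagocytes that engulf particles, dying cells and lipid, and they break these down in acidic lysosomes. Alveolar macrophages lie on the lung surface, clear surfactant lipid, and are collected with any lavage of the airway. In type 2 inflammation, lung macrophages make large amounts of secreted lectins of the chitinase family such as Chil3, a macrophage product induced by IL-4.

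Depth was 16.8 to 17.1 M reads (megareads) in airway, 16.3 to 17.5 M in lymph node reporter, 19.9 to 27.5 M in lymph node knockout-labelled, 18.9 to 22.7 M in lymph node wild type, 20.1 to 20.5 M in culture knockout-labelled and 21.0 to 21.4 M in culture wild type libraries. Values are scaled RPKM, the deposited reads per kilobase, relative to the size of the library, after 1 scaling factor per library, unless stated. T cell markers were present throughout. The summed level of 13 of them (Cd3e, Cd4, Lck and others) was 6012 to 6756 in airway libraries. It was 5145 to 5596 in lymph node reporter libraries. In lymph node OTII cells it was 3957 to 4754 in knockout-labelled and 4034 to 4355 in wild type libraries. In culture it was 2886 to 3460 in knockout-labelled and 2950 to 3197 in wild type libraries. Thy1, among the 13, averaged 52.0 in airway and 76.3 in lymph node reporter cells, against 573 to 813 in the OTII groups. Notch1 averaged 10.9 ± 2.31 in lymph node knockout-labelled cells (SD, n = 4) and 47.9 ± 1.47 in lymph node wild type cells (SD, n = 3), while Notch2 averaged 16.2 ± 2.09 and 7.88 ± 0.305 in those groups. Notch2 RNA thus went against the label, and the cells are called knockout-labelled. In bulk RNA, fewer cells of a type and less RNA per cell cannot be told apart.

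The summed level of the 35 genes was 4790, 9465 and 4669 in the 3 airway libraries, against 311, 349 and 256 in the 3 lymph node reporter libraries. It lay at 90.3 to 103 in lymph node knockout-labelled and 121 to 136 in lymph node wild type libraries, and at 267 to 271 in culture knockout-labelled and 304 to 311 in culture wild type libraries. The genes took 0.810%, 1.73% and 0.855% of the reads assigned to genes in airway libraries, and 0.0603%, 0.0641% and 0.0489% in lymph node reporter libraries. Every airway library was above every other library. Markers of other myeloid cells were read beside them: 11 of monocytes and interstitial macrophages summed to 258 to 304 in airway and 159 to 193 in lymph node reporter libraries, with Lyve1 at 0 in both groups. The 11 dendritic cell markers summed to 434 to 869 in airway and 176 to 438 in lymph node reporter libraries, with Clec9a and Ccl22 at 0 in both. The 8 basophil and mast cell markers summed to 179 to 319 in airway and 593 to 915 in lymph node reporter libraries. Among them, Prss34, Fcer1a, Ms4a2 and Gata2 were at 0 in every library of both groups. The 10 neutrophil markers summed to 5.10 to 17.1 and 0 to 1.15 in those groups. Of these, S100a8 was at 4.11, 6.43 and 3.68 in airway libraries and at 0 in lymph node reporter libraries. S100a9 was at 5.50, 0 and 0 in airway libraries, and Mmp8, Camp, Ngp and Ltf were at 0 in all airway libraries. The part of such cells in the sums of the 35 genes was not tested.

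Ctss and Lgals3 made up most of the sum outside the airway. They held 95.4% and 94.9% of it in culture knockout-labelled and 94.8% and 95.01% in culture wild type libraries. They held 88.6%, 79.9% and 82.5% in lymph node reporter libraries, but 13.4%, 9.09% and 14.4% in airway libraries. Without them the group means were 5583 in airway, 50.2 in lymph node reporter, 20.2 in lymph node knockout-labelled, 19.5 in lymph node wild type, 13.1 in culture knockout-labelled and 15.6 in culture wild type cells.

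**Figure D1:**
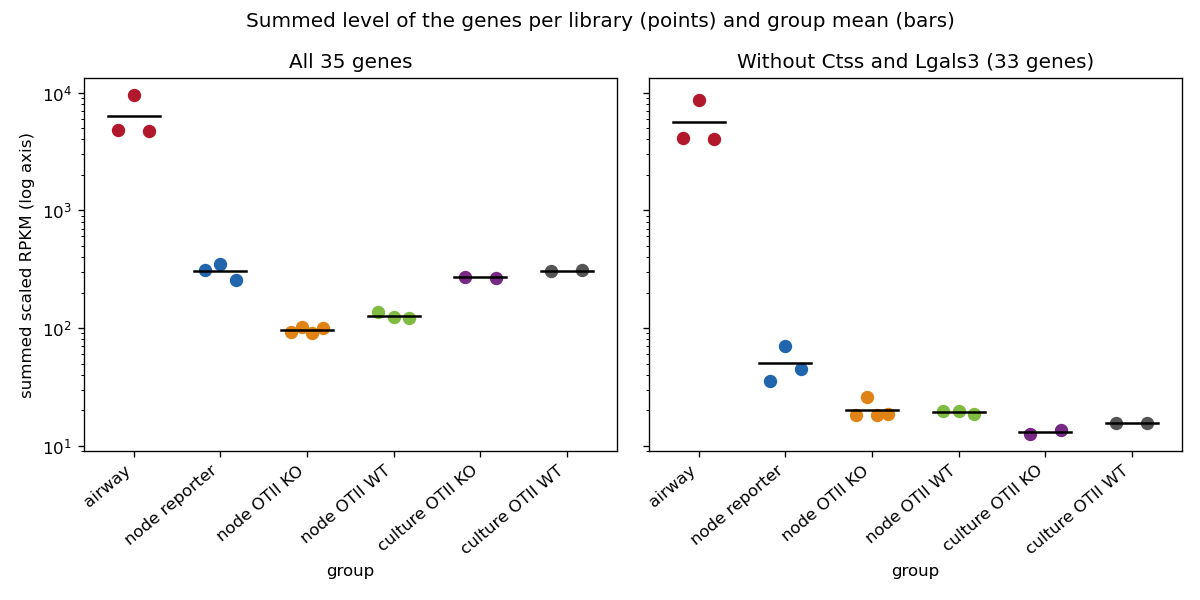
Summed scaled RPKM (log axis) per library by group, over all 35 genes on the left and without Ctss and Lgals3 on the right; points are libraries and bars are group means. The airway libraries lie at 4669 to 9465 over all 35 genes, above all others, and the lymph node and culture groups move down when the 2 genes are left out.

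Of the 35 genes, 29 were higher in every airway library than in every lymph node reporter library. Over all 14268 genes above 0 in at least 1 of these 6 libraries, 9.83% were, but the members were chosen on this contrast and nothing is read from the difference. The median log2 fold change of the 35 genes, on the log2(scaled RPKM + 1) scale, was 3.63, against -0.04 over all detected genes. All 35 had a positive log2 fold change, and 17 were listed at 0 in all 3 lymph node reporter libraries. A 0 there need not mean absence. The whole table held 12982, 12177 and 12470 genes at 0 in those libraries, against 9432 to 10128 in lymph node OTII libraries. Fcgr3 and Ctsk, among the 17, were above 0 in every lymph node OTII library. Of the members just inside and just outside a clear separation, Lgals3 had the smallest log2 fold change of the 29 (0.98), and Apoe, with 1.14, was not separated.

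**Figure D2:**
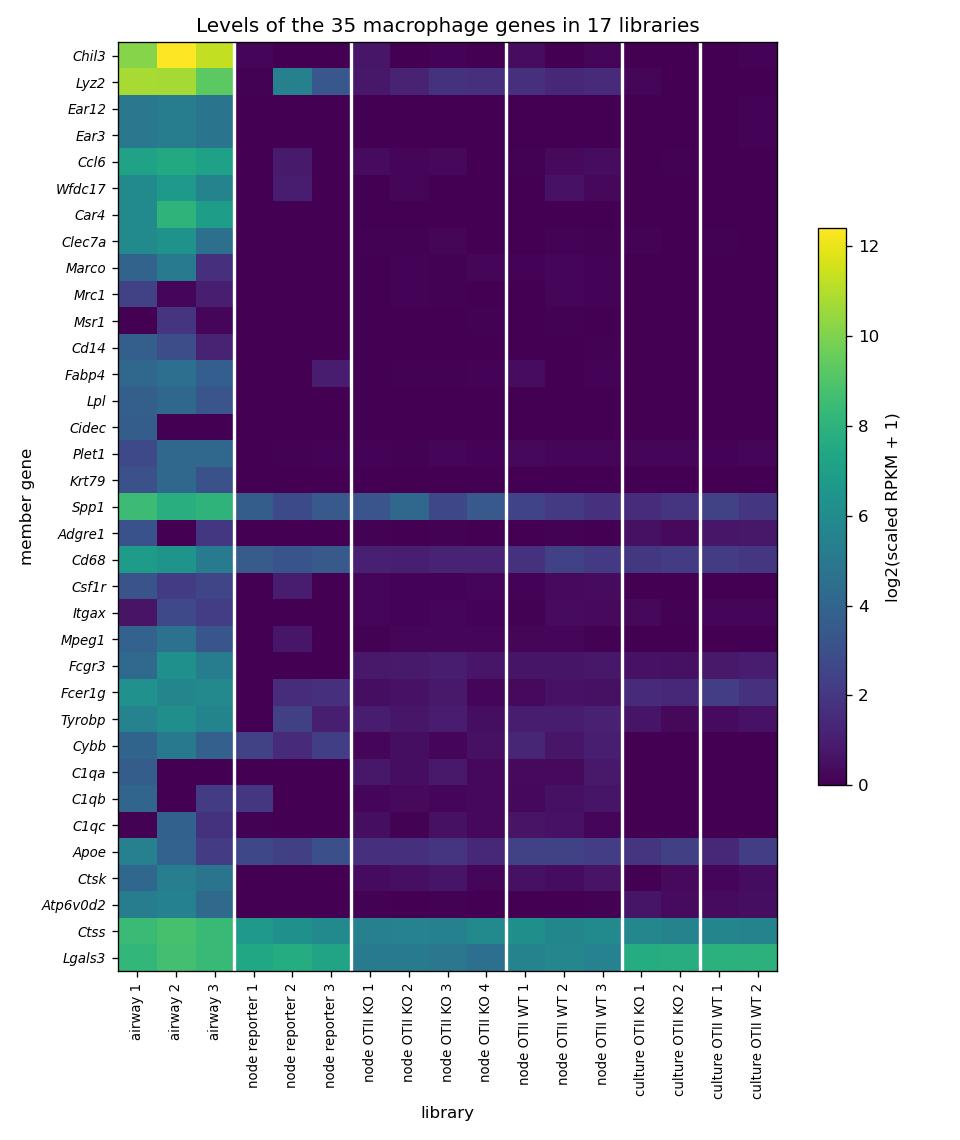
Level of each of the 35 genes (rows) in each of the 17 libraries (columns) as log2(scaled RPKM + 1), with white lines between groups. The 3 airway columns are high over most rows, whereas Ctss and Lgals3 are high in every column.

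Secreted products held the largest share of the airway signal. Chil3 was at 1147, 5385 and 2421 in airway libraries, against 0.123, 0 and 0.0329 in lymph node reporter libraries. Lyz2, the lysozyme of macrophages and monocytes, was at 1759, 1717 and 620.1 in airway libraries, against 0.0441, 40.6 and 9.42 in lymph node reporter libraries. Together Chil3 and Lyz2 held 60.7%, 75.0% and 65.1% of the airway sums. Both belong to families of close copies: Chil4 was at 0.266, 16.8 and 25.1 in airway libraries and Lyz1 at 15.3, 0.370 and 0.335, so the split between copies is uncertain.

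Ccl6, a chemokine, was at 139, 183 and 135 in airway libraries, against 0, 0.873 and 0 in lymph node reporter libraries. Wfdc17, a small protein of the protease-inhibitor type, was at 58.1, 102 and 45.0, against 0, 1.01 and 0. The 2 genes lie 111 kb apart on chromosome 11. In lymph node reporter cells both were above 0 in replicate 2 only.

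Car4, a membrane carbonic anhydrase, was at 57.6, 265 and 120 in airway libraries and at 0 in all 14 other libraries. Set against the 3-read floor of the lymph node reporter libraries, which covers counting error only, it was at least 1279.6-fold higher in airway cells. Clec7a, the receptor for fungal beta-glucan, was at 59.1, 81.1 and 22.7 in airway libraries and at 0 in the 3 lymph node reporter libraries, at least 781-fold higher on the same floor.

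Ear12 and Ear3, ribonucleases of the eosinophil-associated family, had identical values in all 17 libraries. They were at 29.9, 37.4 and 26.1 in airway libraries, and at 0 in every other library except culture wild type 2, which had 1 read. Both rows carry the interval chr14:44102887-44103357 on the plus strand (mm10), which is the coding sequence of Ear2 in GENCODE. Ear2 had 368, 517 and 352 reads in airway libraries, and the reads given to Ear12 came to 67.1%, 65.4% and 65.9% of them. The values printed for Ear12 and Ear3 are therefore reads at the Ear2 locus, and neither gene can be told apart from Ear2. Reads at the Ear1 locus were 156, 59 and 12, and at the Ear10 locus 1, 0 and 0.

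The first 120 coding bases of these 3 genes show how close the copies are. Capitals mark bases that differ from Ear2. Ear2 lies at chr14:44102887-44103006 on the plus strand, Ear1 at chr14:43819290-43819409 and Ear10 at chr14:43923249-43923368, both on the minus strand (GRCm38, GENCODE vM21).
Ear2: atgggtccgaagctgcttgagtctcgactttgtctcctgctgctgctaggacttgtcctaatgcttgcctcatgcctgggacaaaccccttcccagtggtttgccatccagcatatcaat
Ear1: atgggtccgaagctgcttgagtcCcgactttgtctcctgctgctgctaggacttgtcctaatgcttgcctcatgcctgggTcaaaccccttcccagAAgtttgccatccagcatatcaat
Ear10: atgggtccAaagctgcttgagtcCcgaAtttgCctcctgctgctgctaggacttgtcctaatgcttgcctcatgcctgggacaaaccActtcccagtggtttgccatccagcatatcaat
Ear1 differs at 4 and Ear10 at 5 of these bases, and over the full coding sequence of 471 bases Ear10 is 97.0% identical to Ear2. Eosinophils also use genes of this family. Of 6 eosinophil markers, Epx (eosinophil peroxidase), Il5ra and Alox15 were at 0 in all airway libraries, and the summed level was 20.3 to 33.9 in airway and 10.1 to 17.3 in lymph node reporter libraries. Most of that sum was Ccr3, at 26.7, 10.5 and 30.4 in airway libraries, against 16.1, 5.76 and 16.5 in lymph node reporter libraries. Siglecf, also on the list of alveolar macrophage genes read below, was at 0, 7.91 and 3.36 in airway libraries, against 1.21, 3.02 and 0. The part of these cells in the Ear2 locus reads was not tested.

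Lipid handling genes came next, and Spp1, Krt79 and Plet1 were read with them. Fabp4, which carries fatty acids inside the cell, was at 16.4, 21.8 and 11.9 in airway libraries, against 0, 0 and 0.940 in lymph node reporter libraries. Lpl, the lipase that releases fatty acids from lipoproteins, was at 12.5, 16.8 and 8.75, against 0 in all 3. Cidec, a lipid droplet protein, was at 11.8 in airway 1, at 0 in airway 2 and at 0.0315 (1 read) in airway 3, so its airway level rests on 1 library. Spp1, which encodes osteopontin, was at 367, 228 and 270 in airway libraries, against 11.5, 5.82 and 10.1 in lymph node reporter libraries, and was above 1 in every library of the study. Its reads were counted on a transcript of 1414 bases in these 6 libraries and on one of 1411 bases in the OTII libraries. Krt79 was at 7.38, 17.1 and 7.38 in airway libraries and at 0 in all others. Plet1 was at 5.71, 16.5 and 17.5 in airway libraries, against 0, 0.0570 and 0.0814 in lymph node reporter libraries.

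Among scavenger and lectin receptors, Marco was at 14.2, 34.5 and 2.17 in airway libraries and Mrc1, the mannose receptor, at 4.50, 0.167 and 1.05. Msr1, another scavenger receptor, was at 0, 2.74 and 0.181. All 3 were at 0 in every lymph node reporter library. Their airway levels did not share an order: Marco and Msr1 were highest in airway 2, and Mrc1 was highest in airway 1. Cd14, the co-receptor for bacterial lipopolysaccharide, was at 12.4, 6.63 and 1.37 and at 0 in lymph node reporter libraries.

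Lineage markers were read next. Adgre1, which encodes F4/80, was at 7.69, 0 and 2.96 in airway libraries and at 0 in lymph node reporter libraries. Csf1r, the receptor for macrophage colony-stimulating factor, was at 7.91, 3.53 and 5.09, against 0, 1.0 and 0. Cd68, a lysosomal membrane glycoprotein, was at 112, 85.1 and 31.9, against 10.8, 8.38 and 9.91. Itgax, which encodes CD11c, was at 0.555, 5.65 and 3.83 and Mpeg1, a pore-forming protein, at 14.0, 23.3 and 8.93 in airway libraries. Itgax was at 0 in lymph node reporter libraries, and Mpeg1 was at 0, 0.661 and 0.

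The signalling adaptors were more even. Fcer1g, the common gamma chain of Fc receptors, was at 76.2, 50.4 and 56.6 in airway libraries, against 0, 2.00 and 2.29 in lymph node reporter libraries. Tyrobp, the adaptor DAP12, was at 44.7, 70.5 and 47.4, against 0, 4.10 and 1.07. Fcgr3, an IgG receptor that pairs with Fcer1g and lies 170.2 kb from it on chromosome 1, was at 17.7, 73.2 and 36.3, against 0 in all 3. Cybb, the catalytic subunit of the phagocyte oxidase, was at 14.8, 31.8 and 12.9, against 4.47, 1.75 and 3.93.

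The complement genes C1qa, C1qb and C1qc, which together encode C1q and lie within 1 cluster on chromosome 4, did not move together in airway libraries. C1qa was at 11.6, 0 and 0, C1qb at 15.7, 0 and 3.44, and C1qc at 0.0545, 13.5 and 2.51. In lymph node reporter libraries C1qb was at 3.05, 0 and 0 (69 reads in replicate 1), C1qa was at 0 in all and C1qc had 1 read. Apoe, the lipid carrier apolipoprotein E, was at 41.1, 14.1 and 3.46 in airway libraries, against 5.52, 4.08 and 7.04 in lymph node reporter libraries, and the ranges overlapped.

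Lysosomal genes, read with Lgals3, closed the set. Ctss, the protease cathepsin S, was at 345, 443 and 338 in airway libraries, against 103, 74.6 and 60.5 in lymph node reporter libraries. Lgals3, the lectin galectin-3, was at 296, 417 and 335, against 173, 204 and 150. Ctsk, cathepsin K, was at 16.6, 37.8 and 26.6 and Atp6v0d2, a subunit of the proton pump, at 35.5, 42.2 and 18.7 in airway libraries, and both were at 0 in lymph node reporter libraries.

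Airway replicate 2 held the highest value for 22 of the 35 genes, replicate 1 for 12 and replicate 3 for 1. Among the 30 genes above 0 in all 3 airway libraries, the highest value was a median of 2.39 times the lowest. Over all genes above 0 in those libraries with an airway mean of at least 1, this median was 2.03. Of the 35 genes, 5 (14.3%) were at 0 in at least 1 airway library, and of all genes with an airway mean of at least 1, 16.7% were. C1qa, C1qb, Apoe, Mrc1, Cd14, Adgre1 and Cidec were highest in airway 1, whereas Chil3, Car4, Marco, Fcgr3 and C1qc were highest in airway 2. The 10 epithelial markers summed to 12.2 to 94.4 in airway and 0.241 to 9.27 in lymph node reporter libraries, with Sftpa1, Sftpb and Cyp2f2 at 0 in all airway libraries. Scgb1a1 of club cells was at 0, 90.2 and 39.0 in airway libraries and Sftpc of surfactant-making cells at 8.65, 0 and 0. The part of such cells in these differences was not tested.

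**Figure D3:**
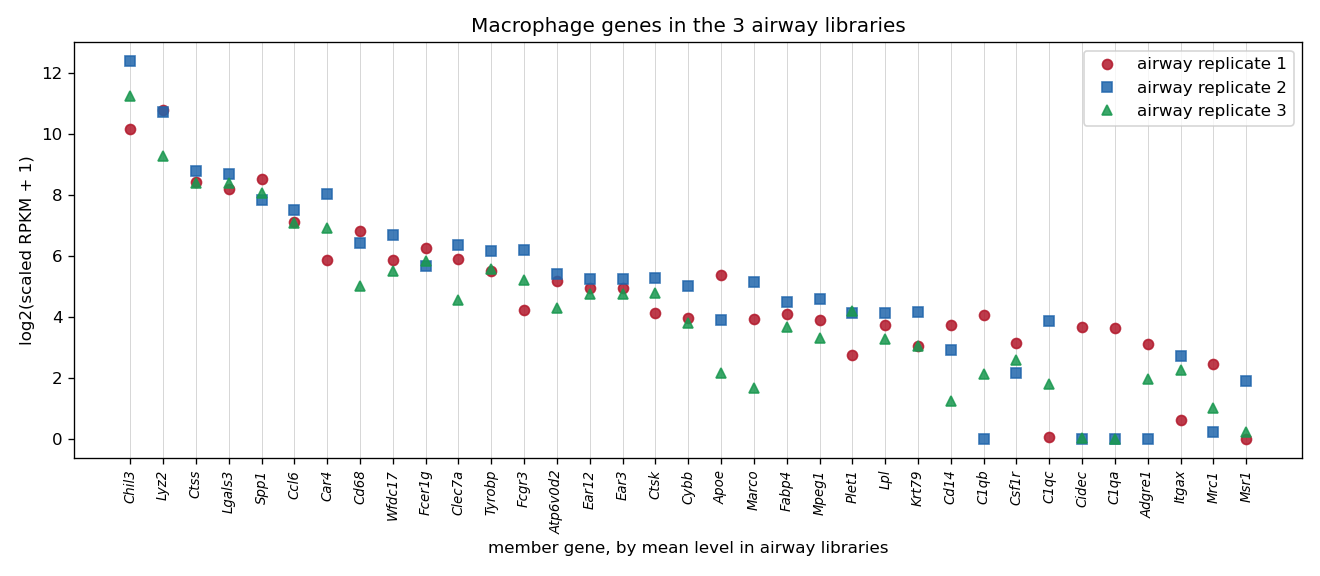
Level of each of the 35 genes in the 3 airway libraries as log2(scaled RPKM + 1), ordered by mean, with 1 symbol and colour per replicate. Among the abundant genes on the left, Ctss, Lgals3, Spp1 and Ccl6 lie closer together than Chil3, Lyz2, Car4 and Cd68, and C1qa, C1qb, C1qc, Cidec and Adgre1 on the right fall to 0 or near 0 in 1 or 2 libraries.

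The lymph node reporter libraries also differed among themselves. Replicate 2 held Lyz2 at 40.6, Tyrobp at 4.10, Csf1r at 1.0 and Mpeg1 at 0.661, and replicate 1 held Lyz2 at 0.0441 and the other 3 at 0. Replicate 3 held Lyz2 at 9.42 and Tyrobp at 1.07, with Csf1r and Mpeg1 at 0. Of the airway products, Ccl6 and Wfdc17 were also above 0 in replicate 2 alone, while Chil3 and Fabp4 were at 0 there, and Car4, Marco and Lpl were at 0 in all 3 replicates.

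In lymph node OTII cells most of the genes were near the floor. Car4, Ear12, Ear3 and Krt79 were at 0 in all 4 lymph node knockout-labelled and all 3 lymph node wild type libraries, and Cidec was also at 0 in all 3 lymph node wild type libraries. Chil3 was at 0.657, 0, 0.0867 and 0 in knockout-labelled libraries and at 0.323, 0 and 0.151 in wild type libraries. The 3 C1q genes were low but above 0 in every lymph node OTII library, at 0.0379 to 0.774 in knockout-labelled and 0.176 to 0.770 in wild type cells, and were at 0 in all 4 culture libraries.

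Of the 35 genes, 6 passed the filter (scaled RPKM of at least 1 in as many libraries as the smaller group) in the comparison of lymph node knockout-labelled with lymph node wild type cells. By limma with Benjamini-Hochberg adjustment over 10869 genes, 1 of the 6 was higher and 3 were lower in knockout-labelled cells. Of all genes tested, 18.1% passed, 10.4% higher and 7.68% lower. The members are too few for a share to be read against those.

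Spp1 was at 8.59, 16.5, 5.41 and 10.1 in lymph node knockout-labelled libraries, against 4.6, 3.24 and 2.35 in lymph node wild type libraries. It rose by 1.28 on the log2 scale (limma, SE 0.308, adjusted p = 0.0207), and the groups did not overlap. The call was lost without wild type replicate 2, wild type replicate 3 or knockout-labelled replicate 4, and with no filter on low values. Cd68 fell, with 1.12, 1.07, 1.30 and 1.38 in knockout-labelled libraries, against 2.43, 4.22 and 3.36 in wild type libraries (log2 fold change -0.95, SE 0.151, adjusted p = 0.00336, limma).

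Lgals3 was at 34.2, 33.5, 29.4 and 22.4 in lymph node knockout-labelled libraries, against 46.2, 53.1 and 43.6 in lymph node wild type libraries, and fell by 0.67 on the log2 scale (SE 0.146, adjusted p = 0.0137, limma). Apoe was at 2.33, 2.26, 2.77 and 1.70, against 4.23, 4.25 and 3.68, and fell by 0.64 (SE 0.130, adjusted p = 0.0102, limma). For both, all knockout-labelled libraries lay below all wild type libraries, and both calls were lost without wild type replicate 2. Ctss was at 40.5, 43.7, 42.7 and 58.1, against 70.5, 50.6 and 58.3, with a log2 fold change of -0.36 that missed the threshold (limma, adjusted p = 0.123). Lyz2 was at 0.726, 1.39, 2.55 and 2.22, against 2.29, 1.69 and 1.88, and did not pass either (adjusted p = 0.670, limma).

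**Figure D4:**
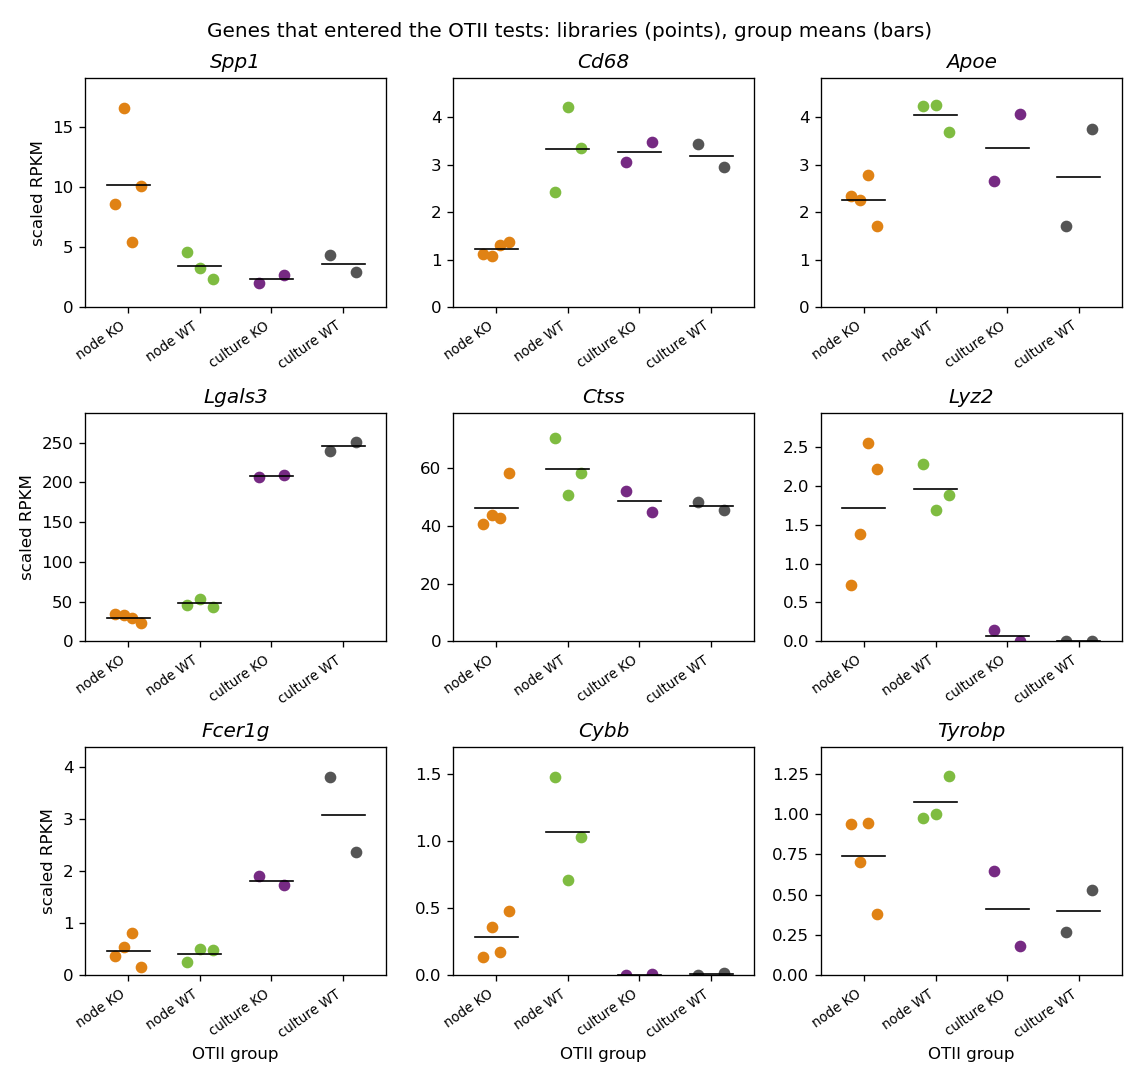
Scaled RPKM of the 9 genes that entered any OTII test, each in its own panel with an axis from 0; points are libraries and bars are group means. Cd68, Apoe and Lgals3 lie lower and Spp1 higher in lymph node knockout-labelled than in lymph node wild type libraries, and Lgals3 is highest in culture.

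Markers of other cells were read in the same comparison. The 11 monocyte and interstitial macrophage markers summed to 61.5 to 83.4 in knockout-labelled and 88.8 to 115 in wild type lymph node libraries. Lyve1 was at 0 in both groups. Ccr2 and Selenop were lower and Cx3cr1 and Ly6c2 higher in knockout-labelled cells. Selenop alone averaged 41.9 in lymph node knockout-labelled and 83.1 in lymph node wild type cells. In culture it averaged 45.8 in knockout-labelled and 49.3 in wild type cells. The 11 dendritic cell markers summed to 79.4 to 112 in knockout-labelled and 88.0 to 116 in wild type lymph node libraries. Cd209a was at 0 in both of these groups. The part of such cells in the differences of Spp1, Cd68, Lgals3 and Apoe was not tested.

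In culture, 6 of the 35 genes were tested between knockout-labelled and wild type cells and none passed by limma (0 of 10968 genes passed, or 0%; at an unadjusted p under 0.05 there were 256 genes and 0 members). With limma voom on recovered reads, 2 genes of the whole table and 0 members passed. Lgals3 was at 206 and 209 in culture knockout-labelled libraries, against 240 and 250 in culture wild type libraries (log2 fold change -0.24, adjusted p = 0.9997, limma). Spp1 was at 1.97 and 2.69, against 4.29 and 2.91 (log2 fold change -0.46, adjusted p = 0.9997, limma).

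Lymph node cells were then set against cultured cells of the same genotype. These comparisons share libraries with the comparisons of genotypes. Of the 35 genes, 9 were tested in wild type cells and 7 in knockout-labelled cells. In wild type cells 3 were higher and 2 lower in the lymph node (31.0% of all 11108 genes passed, 13.5% higher and 17.5% lower), and in knockout-labelled cells 2 were higher and 3 lower (29.0% of 11227, 13.7% higher and 15.3% lower). Lyz2 in both genotypes, and Cybb and Tyrobp in wild type cells, passed the filter through the lymph node libraries alone, and Fcer1g in both genotypes through the culture libraries alone. Their calls could only go 1 way, so they are given as values without a p. The counts include them and are not read against the shares of all genes. Among the calls in wild type cells, only that of Lgals3 could go either way. In knockout-labelled cells those of Lgals3, Spp1 and Cd68 could.

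Lgals3 fell in the lymph node in both genotypes, by 2.77 in knockout-labelled cells (adjusted p = 2.07e-05) and by 2.34 in wild type cells (adjusted p = 1.99e-05, both limma, log2 scale). Fcer1g was at 0.366, 0.544, 0.808 and 0.163 in lymph node knockout-labelled libraries against 1.90 and 1.73 in culture, and at 0.251, 0.502 and 0.495 in lymph node wild type libraries against 3.80 and 2.36 in culture. All lymph node libraries lay below all culture libraries of the same genotype, with log2 fold changes of -0.96 in knockout-labelled and -1.51 in wild type cells.

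All lymph node libraries of Lyz2 lay above all culture libraries of the same genotype. It was at 0 in both culture wild type libraries, so lymph node wild type cells were at least 13.7-fold higher on a floor of 3 reads per library. Culture knockout-labelled libraries held 3 and 0 reads of Lyz2, and the ratio of lymph node to culture was 23.4 (95% exact Poisson interval 8.0 to 113, counting error only). Cybb was at 1.48, 0.711 and 1.03 in lymph node wild type libraries, against 0 and 0.0212 in culture wild type libraries, a ratio of 101 (interval 28.0 to 836 from 2 reads). Tyrobp was at 0.977, 1.0 and 1.23, against 0.271 and 0.532 (log2 fold change 0.57), and its call was lost without lymph node wild type replicate 1 or culture wild type replicate 1, and with limma voom on recovered reads.

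Spp1 was higher in lymph node than in culture knockout-labelled cells (log2 fold change 1.66, adjusted p = 0.00792) and Cd68 was lower (-0.95, adjusted p = 0.00144, both limma). In wild type cells neither passed (adjusted p = 0.816 and 0.913, limma). In knockout-labelled cells, the calls of Spp1, Lyz2 and Fcer1g were lost without either culture library.

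The effect of the knockout label in the lymph node was set against its effect in culture by an interaction contrast. Of 9 members tested, 1 passed, on the lower side (3.84% of 11508 genes passed, 2.35% higher and 1.49% lower). Cd68 had a log2 difference of effects of -0.98 (limma, SE 0.230, adjusted p = 0.0424). Its call was lost under 15 of 18 other settings, among them each culture library left out. Spp1 had a difference of 1.74 and did not pass (adjusted p = 0.0799, limma).

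Related genes outside the 35 were read from lists written with earlier results of these data known. In airway against lymph node reporter cells, 5.27% of 10111 genes passed by limma, 2.97% higher and 2.30% lower. Of 17 tested genes of alveolar macrophages, 6 rose (Cd36, Cd9, Csf2rb, Ear2, Plin2 and Slc7a2) and 11 did not pass. Cd36, Csf2rb, Ear2 and Slc7a2 passed the filter through the airway libraries alone, so they could only rise, and Ear2 counts the locus reads also given to Ear12 and Ear3. Plin2, a lipid droplet coat protein, was at 145, 142 and 168 in airway libraries, against 21.1, 54.0 and 39.7 in lymph node reporter libraries. Pparg, the transcription factor that alveolar macrophages need, was at 91.1, 119 and 59.2, against 57.8, 58.6 and 50.8. It did not pass (limma, adjusted p = 0.219). Siglecf of the same list was not called higher in airway cells (limma, adjusted p = 0.710). It averaged 3.76 in airway and 1.41 in lymph node reporter cells. In lymph node OTII cells it averaged 3.53 in knockout-labelled and 6.38 in wild type libraries.

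Of 5 tested genes of alternatively activated macrophages, Arg1, Ccl17 and Ccl24 rose. Arg1, the enzyme arginase 1, was at 19.3, 10.5 and 16.4 in airway libraries, against 1.95, 0.355 and 1.15. Of 6 tested genes of ITAM signalling (activating immune receptors and their kinases) Clec4n, Fcgr4, Lilrb4a and Sirpa rose, and of 5 myeloid transcription factors Bhlhe40 and Tfec rose. Of these genes Arg1, Ccl17, Clec4n, Fcgr4, Sirpa and Tfec passed the filter through the airway libraries alone and could only rise. Of 15 tested lysosomal genes, Npc2 rose and 14 did not pass.

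The same lists were read in lymph node knockout-labelled against lymph node wild type cells. Of all 10869 genes tested there, 18.1% passed, 10.4% higher and 7.68% lower. Of 4 tested genes of alternatively activated macrophages, Arg1, Ccl22 and Il4ra rose and 1 did not pass. Of 2 tested ITAM genes Plcg2 rose, and of 6 myeloid transcription factors Irf8 rose and Cebpa fell. Of 14 tested lysosomal genes, Ctsb and Ctsd rose and Lgmn fell. Of 11 alveolar macrophage genes, Ctsd and Il18 rose and Cd9 and Fabp5 fell. Arg1, Ccl22 and Il18 passed the filter through the knockout-labelled libraries alone and Cebpa through the wild type libraries alone, so their calls could only go 1 way. Ctsd, the protease cathepsin D, was at 360, 302, 391 and 443 in knockout-labelled libraries, against 162, 143 and 135 in wild type libraries.

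The genes outside the 35 most alike in pattern were found by Pearson correlation with the mean of the 35 genes on the log2(scaled RPKM + 1) scale over 17 libraries and 8867 genes. They were Ear2 (r = 0.996), Tfec, Ccl9, Mcemp1, Mgst1, Dab2, Ch25h and Sirpa (r = 0.978). The libraries share groups, so this is a description, and Ear2 shares its locus with Ear12 and Ear3. Mgst1 was at 9.40, 19.8 and 7.36 in airway libraries and at 0 in all others.

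Promoter sequence was matched in RefSeq (GRCm38.p6) for 24 of the 35 genes, as 250 bases before the start. The letters AGGAAGT or their reverse ACTTCCT, a string close to sites bound by ETS factors, were found in 7 of the 24 (29.2%), against 7.69% of 32851 promoters. GAGGAA or its reverse TTCCTC, which can overlap it, was found in 11 of the 24 (45.8%), against 23.3%. Both strings were chosen after the sequences were seen, and a match is a description. The 4 most abundant members with the longer string are shown, 5′ to 3′ on the gene's strand, with matches in capitals. Chil3 is at chr3:106167565-106167814 (minus strand), Lyz2 at chr10:117282273-117282522 (minus), Ccl6 at chr11:83593088-83593337 (minus) and Spp1 at chr5:104434861-104435110 (plus).
Chil3: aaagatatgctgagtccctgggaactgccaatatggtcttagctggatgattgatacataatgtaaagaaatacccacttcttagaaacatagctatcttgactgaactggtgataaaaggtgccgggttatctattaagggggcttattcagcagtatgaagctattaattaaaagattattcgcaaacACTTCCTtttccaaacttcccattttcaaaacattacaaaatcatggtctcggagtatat
Lyz2: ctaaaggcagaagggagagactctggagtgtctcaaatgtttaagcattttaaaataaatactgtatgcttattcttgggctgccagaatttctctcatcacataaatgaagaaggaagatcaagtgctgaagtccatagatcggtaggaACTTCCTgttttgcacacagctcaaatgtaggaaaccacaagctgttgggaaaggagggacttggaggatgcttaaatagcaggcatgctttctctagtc
Ccl6: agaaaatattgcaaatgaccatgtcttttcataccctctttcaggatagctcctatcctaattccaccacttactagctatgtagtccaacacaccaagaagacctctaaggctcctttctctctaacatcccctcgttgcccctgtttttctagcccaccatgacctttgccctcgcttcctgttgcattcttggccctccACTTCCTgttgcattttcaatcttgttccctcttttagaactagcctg
Spp1: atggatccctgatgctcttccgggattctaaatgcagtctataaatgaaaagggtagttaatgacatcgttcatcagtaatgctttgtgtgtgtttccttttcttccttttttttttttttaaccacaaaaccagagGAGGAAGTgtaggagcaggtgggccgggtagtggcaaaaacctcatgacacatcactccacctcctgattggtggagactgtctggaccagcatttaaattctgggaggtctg
Of these, Chil3 was listed at 0 or up to 0.657 in libraries outside the airway, while Spp1 was above 1 in all. The Car4 promoter held neither string.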

How the data were processed

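The authors deposited 1 RPKM table per library (reads per kilobase of transcript, relative to library size), with positions on mm10. Per the submitters' processing notes the tools were HISAT2 2.0.4, HOMER and DESeq2; libraries were made with Smart-seq2, per the labels' protocols. Reads and depth were recovered from the size of the smallest RPKM steps (100% of values below 100 reads came out whole within 0.1). Each library was divided by a median-of-ratios factor from the 6796 genes with RPKM of 1 or more everywhere. Groups were compared on log2 of that value plus 1 by a two-sided moderated linear model (limma 3.58.1 under R 4.3.3, trended prior), with Benjamini-Hochberg adjustment over all tested genes and a threshold of 0.05, fitted to the groups compared (all 4 OTII groups for the interaction). The tests were also run on simulated data with a common spread and changes planted in well expressed genes only. That run does not cover members near the floor. Intervals and the 3-read floor cover counting error only. Members, lists, tests and the rule for named genes (values per library for a fixed set and for members past the threshold; 8 genes most alike) were chosen with earlier results of these data known. Replicate pairs of a group differed by more than sampling noise. Of all genes, 1644 had another transcript in some table, and Spp1 used another transcript in the reporter and OTII tables. The result of 1 related gene list is not reported here.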

Additional observations from a re-analysis of the deposited data

Results flagged for a closer look

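Cd68 stood out because the effect of the knockout label on it was not alike in lymph node and culture by the interaction test, with a log2 difference of -0.98 (adjusted p = 0.0424, limma). The call was lost under 15 of 18 other settings, with an adjusted p of 0.0153 to 0.350 over them. It was at 1.22 ± 0.146 in lymph node knockout-labelled and 3.34 ± 0.895 in lymph node wild type cells, and at 3.27 ± 0.300 in culture knockout-labelled and 3.19 ± 0.347 in culture wild type cells (SD, n = 4, 3, 2 and 2). Among the 4 lymph node knockout-labelled libraries, none of 7 values examined (6 genes and the sum of all 35) had a library far from the others.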

How the results depend on the processing

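Lymph node knockout-labelled against wild type cells gave 4 members called, and 2 to 4 with 1 library left out (2 without wild type replicate 2, Cd68 and Cybb). Without wild type replicate 2, Cybb passed the filter through the wild type libraries alone, so its call could only go 1 way. Without that replicate 1008 genes of the whole table were called, against 1965 with all libraries. In culture 0 members were called under every setting run. Lymph node against culture gave 5 in wild type cells (3448 genes of the whole table), 8 with no filter (3407), 3 with RPKM as deposited (3420), 3 with a replicate block (3131) and 3 to 6 with 1 library left out (2194 to 4363). It gave 5 in knockout-labelled cells (3251), 10 with no filter (3686) and 2 to 5 with 1 library left out (1703 to 4235). The interaction gave 1, and 0 with a pseudocount of 5, with a replicate block, with limma voom and with libraries of the same first header number averaged, and 0 to 1 with 1 library left out. The last 2 settings and the crossed numbers below were chosen after seeing the data. The cause of these changes was not tested. With no filter more genes were tested (for example 16890 against 10869). The counts for lymph node against culture include the calls that could only go 1 way.

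The airway median of 3.63 was 6.19 with a pseudocount of 0.1 and 1.91 with a pseudocount of 5, and 3.36 to 3.95 with 1 library left out. The airway sum of 6308 was 3323 without Chil3 and 1895 without Ear3, Ear12, Chil3 and Lyz2. Without the highest member the sums were 129 in lymph node reporter, 50.1 in lymph node knockout-labelled, 67.1 in lymph node wild type, 61.5 in culture knockout-labelled and 62.5 in culture wild type cells. With RPKM as deposited they were 367 in lymph node reporter, 90.4 in lymph node knockout-labelled, 258 in culture knockout-labelled and 290.4 in culture wild type cells.

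Log2 fold changes that changed sign were of members not past the threshold. With 1 library left out, Lyz2 ranged from -0.314 to 0.0325 in lymph node knockout-labelled against wild type cells. In culture, Ctss ranged from -0.0579 to 0.146, Cd68 from -0.0551 to 0.114 and Apoe from -0.147 to 0.670. In lymph node against culture wild type cells, Cd68 ranged from -0.113 to 0.190 and Spp1 from -0.299 to 0.136, and in knockout-labelled cells Ctss ranged from -0.188 to 0.0263. In wild type cells, Cd68 was -0.0477 and Spp1 0.0141 with libraries averaged, and Spp1 was 0.0996 with a replicate block.

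Correlations of the deviations of same-numbered libraries were 0.04, -0.41 and -0.39 for lymph node knockout-labelled and wild type and -0.22 in culture. Between lymph node and culture they were 0.18 in wild type and 0.13 in knockout-labelled cells, over 2 numbers each. The number was not taken as pairing. The replicate block moved the whole-table count to 630 in the lymph node, 65 in culture and 32 for the interaction, from 1965, 0 and 442, and left 3 members called in the lymph node (Apoe not). With the culture numbers crossed, 8 genes and 0 members were called. edgeR's quasi-likelihood test was planned and not run, since the values are not counts. Depth limits the members near 0: 3 reads of Lyz2 or fewer in every culture library leave a level below 0.15.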
